A study of Homo sapiens with 40 samples.

Results

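The minichromosome maintenance (MCM) mRNAs described here were the 8 gene symbols MCM2, MCM3, MCM4, MCM5, MCM6, MCM7, MCM8 and MCM10, chosen by name from the 55765 symbols counted in each library, and all 8 were present and passed the filter on low counts in every comparison. The source of all 40 RNA-Seq libraries was HEK293, an established human embryonic kidney line carrying adenovirus sequence, and the libraries formed 12 groups. In the RNA immunoprecipitation (RIP) experiment, mRNA bound to endogenous eIF4A1, eIF4A2 or DDX6 was pulled down with antibodies from cells that received no siRNA and was set beside RIP total RNA, the unselected RNA, in 3 libraries of each kind. For the sucrose gradients, cells were given either control siRNA or siRNA to CNOT1, on which the Ccr4-Not complex is built. RNA of the input, of fractions 1 to 5 (subpolysomal) and of fractions 6 to 11 (polysomal) gave 4 libraries for each siRNA. The TNRC6 experiment took total RNA after control siRNA or after siRNAs against TNRC6A and TNRC6B, in 2 libraries each. Nothing in the labels says that replicates came from separate cultures, so p-values measure the spread between these libraries. HEK293 cells are 1 cell line, siRNAs reduce rather than remove their targets, and an immunoprecipitate (IP) can hold RNA bound indirectly.

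MCM2 to MCM7 are the 6 different subunits of the ring-shaped helicase that is loaded onto replication origins in G1 phase by the origin recognition complex, CDC6 and CDT1. In S phase the ring joins CDC45 and the GINS complex and unwinds the template, a step for which MCM10 is required. MCM8 is a relative that acts with MCM9 in repair by homologous recombination and is not part of this ring. Transcription of many of these genes is driven by E2F factors at the start of S phase, and proliferating cells hold them at high levels.

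The 8 genes lie on 8 chromosomes. By GENCODE release 44 on GRCh37, which matches the hg19 build of the counts, MCM2 lies at chr3:127317253-127341279 (plus strand), MCM3 at chr6:52128812-52149679 (minus), MCM4 at chr8:48872745-48890720 (plus), MCM5 at chr22:35796127-35821424 (plus), MCM6 at chr2:136597196-136634013 (minus), MCM7 at chr7:99689856-99699563 (minus), MCM8 at chr20:5931298-5979623 (plus) and MCM10 at chr10:13203558-13253110 (plus). MCM7 overlaps AP4M1 on the opposite strand over 7.90% of its exon bases, and the strand option used in counting was not stated, so a small part of its counts is uncertain. MCM2 shares 23.6% of its exon bases with an antisense lncRNA and MCM8 33.3% with a same-strand gene model, and neither partner is a row of the count files.

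Total counts ran from 15.4 to 46.0 M per library. The lowest count of any member in any library was 824, so no member was limited by low counts. LIN28B, NEFM and VIM, markers of this line, were at 105 CPM (counts per M of the scaled library total) or more in all 40 libraries, whereas PAX2, the fourth marker examined, did not exceed 1.57 CPM. PTPRC, ALB and INS, which mark blood, liver and islet cells, stayed at or below 0.400 CPM.

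The knockdowns were checked in their target. In input RNA, CNOT1 was at 687, 711, 662 and 628 CPM with control siRNA and at 41.4, 36.8, 39.9 and 40.4 CPM with CNOT1 siRNA. In subpolysomal RNA it ranged from 235 to 317 CPM with control siRNA and from 73.5 to 89.6 CPM with CNOT1 siRNA. The polysomal libraries did not all match their labels. CNOT1 was at 469.9, 501, 28.3 and 479 CPM in the libraries labelled polysomal control siRNA replicates 1 to 4, and at 29.0, 24, 631 and 31.6 CPM in the libraries labelled polysomal CNOT1 siRNA replicates 1 to 4. The libraries labelled replicate 3 thus went against their labels in both polysomal groups, and values for polysomal RNA are given with them and without both of them. TNRC6A was at 178 and 189 CPM with control siRNA and at 40.5 and 64.7 CPM with TNRC6A/B siRNA, and TNRC6B at 67.6 and 73.1 against 17.7 and 26.3 CPM.

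Start-site sequence was examined because the members are textbook E2F targets. RefSeq promoters (GRCh38.p14, 250 bases before to 50 after a start site) were found for 6 of the 8 members. Windows were searched on both strands for 4 E2F-type octamers, TTTCCCGC, TTTGGCGC, TTTCGCGC and TTTGCCGC, of which matches may overlap each other. Such a match was found in the promoters of MCM2, MCM3, MCM6, MCM7 and MCM8 and not in that of MCM10. For MCM2 and MCM8 no match lay wholly before the start site, and for MCM3 1 of 2 did. MCM7 has 3 start sites in the table, and the windows of the other 2 held no match. Counted in the same way, with a gene taken as matching when any of its windows held an octamer, 3.99% of all 27305 genes with a promoter and 6.41% of the 10762 of them tested in the RIP experiment matched. MCM6 held 4 matches, the highest number among the members, and they are 2 pairs of overlapping matches. The windows below lie upstream of the start sites, on the minus strand of each gene's chromosome, with the octamer in capitals.
MCM6, chr2:135876577-135876606: agggctttgcaTTTGGCGCgaaatcccttt
MCM6, chr2:135876515-135876544: cattggtcaggTTTGGCGCgaaatctccag
MCM3, chr6:52284898-52284927: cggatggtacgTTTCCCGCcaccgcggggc
MCM7, chr7:100101398-100101427: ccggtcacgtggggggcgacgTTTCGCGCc
These are matches of letters only, and no binding was measured.

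An intron of MCM7 hosts 3 miRNA genes, which matter here because the study concerned miRNA-guided repression through Ccr4-Not. Their main mature forms (RefSeq, GRCh38.p14, chromosome 7) are shown with the seed, bases 2 to 8, in capitals.
hsa-miR-106b-5p: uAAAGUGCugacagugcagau
hsa-miR-93-5p: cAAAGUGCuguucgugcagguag
hsa-miR-25-3p: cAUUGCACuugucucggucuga
The seeds of miR-106b and miR-93 are identical, and that of miR-25 differs. The libraries were made from poly(A) mRNA, which does not capture mature miRNAs. The rows of these genes may count fragments of the host transcript or its processing intermediates, and the origin of these reads was not tested. MIR106B and MIR93 held at most 2 counts in any library. Unscaled for depth, MIR25 held 24 to 51 counts in RIP total RNA and 2 to 3 in the eIF4A1 IP. It held 10 to 113 in the eIF4A2 IP and 2 to 11 in the DDX6 IP.

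Levels were compared per kilobase of all annotated exons. In input RNA with control siRNA, MCM7 stood at 155 ± 9.86 CPM per kb (SD, n = 4) and MCM3 at 150.1 ± 4.28, and the ranges of these neighbours overlapped. Lower in that order came MCM2 at 89.1 ± 5.99, MCM6 at 75.5 ± 1.29 and MCM4 at 64.2 ± 2.18 CPM per kb, each clear of its neighbours. MCM5 at 22.0 ± 2.78 and MCM10 at 19.0 ± 0.74 CPM per kb overlapped, and MCM8 was lowest at 11.0 ± 0.24. MCM7 or MCM3 led the order in all 12 groups. MCM8 was lowest in 9 groups, and in the 3 IPs MCM10 was lowest. The MCM10 range overlapped that of MCM5 in the eIF4A1 and eIF4A2 IPs and that of MCM8 in the DDX6 IP. In subpolysomal control RNA the ranges of MCM8 and MCM10 also overlapped. MCM5 lay below MCM8 in the eIF4A2 IP, at 10.5 against 13.8 CPM per kb without overlap, and the ranges of these 2 genes overlapped in the eIF4A1 IP (9.45 against 11.3), the DDX6 IP (10.4 against 10.2) and subpolysomal RNA after CNOT1 siRNA (8.29 against 7.83). The order depends on the length used. In a choice made after seeing the data, per kilobase of the single MANE mRNA, input control levels (CPM per kb, mean ± SD, n = 4) were 311 ± 19.8 for MCM7, 178 ± 5.09 for MCM3, 156 ± 5.28 for MCM4, 122 ± 8.23 for MCM2, 83.1 ± 1.42 for MCM6, 46.2 ± 5.85 for MCM5, 22.8 ± 0.893 for MCM10 and 11.3 ± 0.244 for MCM8, so that MCM4 stood above MCM2 and MCM6, and no neighbours overlapped. The 3 experiments were scaled separately, so the following ratios also hold differences of scale. The highest of the 12 group means was 1.83 times the lowest for MCM8, and between 2.67 times for MCM7 and 4.55 times for MCM6 for the other members.

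**Figure D1:**
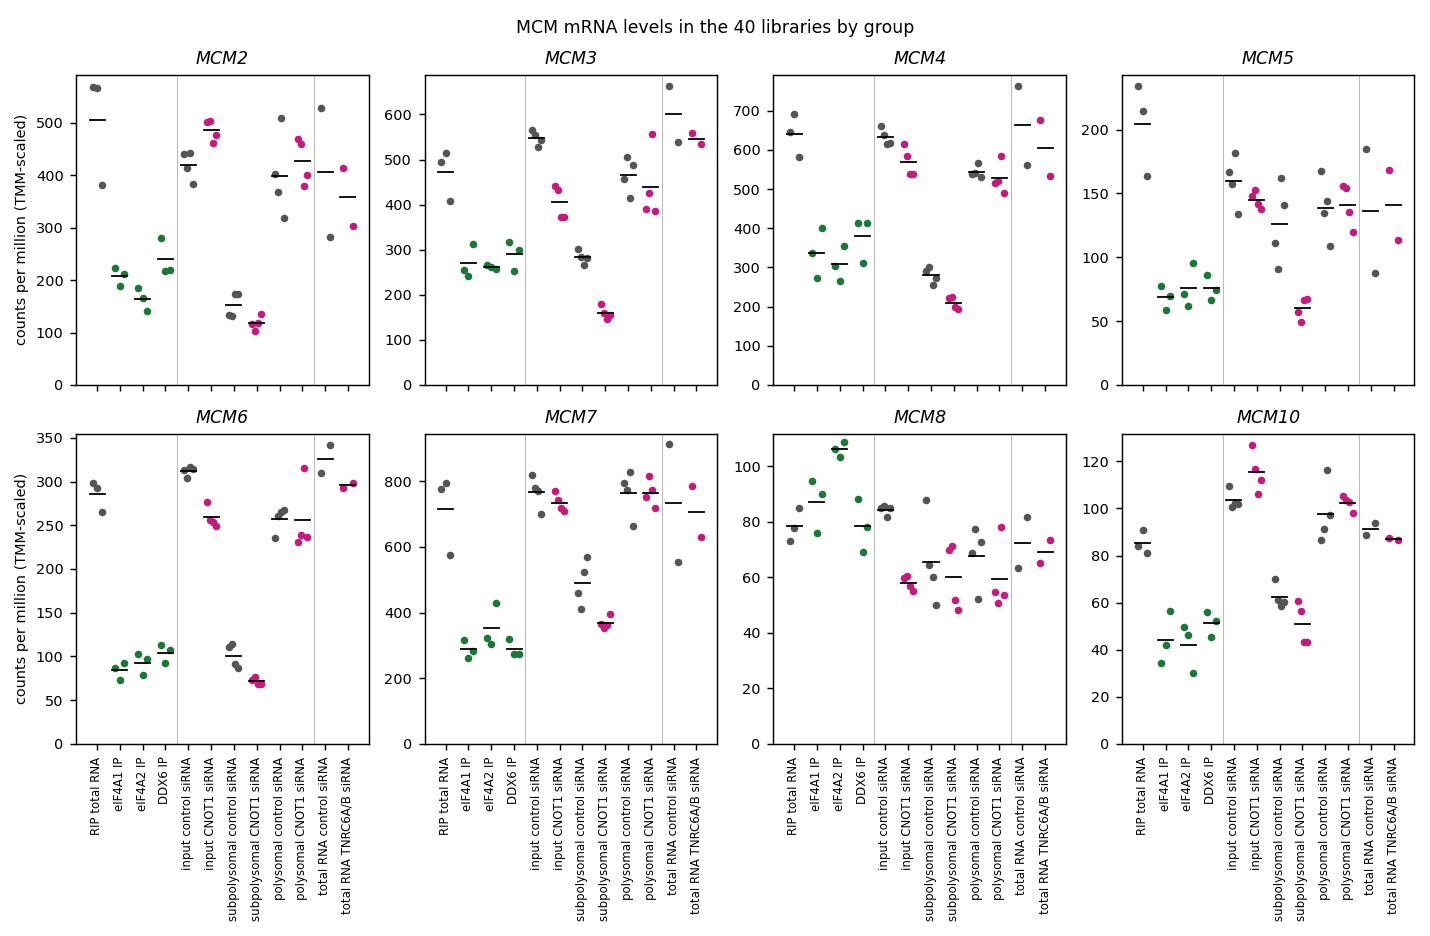
Level of each MCM mRNA (y axis, TMM-scaled CPM) in the 40 libraries, with 1 point per library, a bar at each group mean, and green for IPs, magenta for CNOT1 or TNRC6A/B siRNA and grey for total RNA or control siRNA. MCM6 stands at 265 to 298 CPM in RIP total RNA and at 73.6 to 113 CPM in the IPs, whereas the MCM8 ranges of the eIF4A1 and DDX6 IPs overlap that of RIP total RNA.

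Which mRNAs were higher or lower in the IP of each DEAD-box protein was asked by comparing it with RIP total RNA. None of the 40 libraries was an IP with a control antibody. RNA held by the beads alone therefore cannot be told apart from bound RNA. A lower value in an IP is relative and does not show that an mRNA was unbound. All 6 helicase subunits and MCM10 were lower in each of the 3 IPs, by between 0.71 and 1.76 on the log2 scale, and MCM8 was not lower in any. In the eIF4A1 IP 7 of 8 members were called lower and 0 higher, at a Benjamini-Hochberg adjusted p below 0.05 over all 17474 genes tested in edgeR, where 26.5% of all genes were called lower and 26.1% higher. In the eIF4A2 IP 7 were called lower and 1 higher, against 25.8% and 24.5% of all genes. In the DDX6 IP 7 were called lower and 0 higher, against 23.3% and 22.7% of all genes. The median log2 difference over the members was -1.11, -1.04 and -0.91 in the eIF4A1, eIF4A2 and DDX6 IPs, beside 0.04, 0.01 and 0.01 over all genes tested. The 3 comparisons share the same total RNA libraries.

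MCM6, a subunit of the ring, was at 298, 292 and 265 CPM in RIP total RNA, at 86.4, 73.6 and 92.7 CPM in the eIF4A1 IP, at 103, 78.3 and 97.5 CPM in the eIF4A2 IP and at 113, 93.0 and 107 CPM in the DDX6 IP. Every IP library was below every total RNA library. The log2 differences were -1.76 ± 0.15 (SE, adjusted p = 1.93e-06), -1.62 ± 0.15 (adjusted p = 2.55e-06) and -1.45 ± 0.15 (adjusted p = 1.69e-05).

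MCM5, another subunit, was at 234, 214 and 164 CPM in RIP total RNA, at 77.6, 58.8 and 69.7 CPM in the eIF4A1 IP, at 71.2, 61.5 and 95.7 CPM in the eIF4A2 IP and at 86.4, 66.8 and 74.0 CPM in the DDX6 IP. All 9 IP libraries again lay below the total RNA libraries, with log2 differences of -1.57 ± 0.19, -1.42 ± 0.19 and -1.43 ± 0.19 (adjusted p = 2.65e-05, 5.25e-05 and 8.80e-05). MCM2 was at 569, 566 and 381 CPM in RIP total RNA and had its lowest values in the eIF4A2 IP, at 186, 166 and 141 CPM. Its log2 difference there was -1.62 ± 0.18, beside -1.28 ± 0.18 in the eIF4A1 IP and -1.08 ± 0.18 in the DDX6 IP. MCM7 differed by -1.31 ± 0.18, -1.02 ± 0.17 and -1.31 ± 0.18 in the eIF4A1, eIF4A2 and DDX6 IPs, MCM4 by -0.93 ± 0.18, -1.05 ± 0.18 and -0.75 ± 0.18, MCM10 by -0.95 ± 0.21, -1.02 ± 0.21 and -0.73 ± 0.20, and MCM3 by -0.80 ± 0.15, -0.86 ± 0.15 and -0.71 ± 0.15. For these 7 mRNAs no IP library overlapped the total RNA range, as held with the IP lower for 29.3%, 30.0% and 29.0% of all genes tested in the eIF4A1, eIF4A2 and DDX6 IPs.

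MCM8, the repair helicase subunit, stood apart. It was at 73.2, 78.0 and 84.9 CPM in RIP total RNA, at 94.9, 76.2 and 90.0 CPM in the eIF4A1 IP, at 106, 103 and 109 CPM in the eIF4A2 IP and at 88.4, 69.0 and 78.1 CPM in the DDX6 IP. The eIF4A2 IP libraries were all above the total RNA range, as held for 28.5% of all genes tested, and those of the other IPs overlapped it. The log2 difference was 0.43 ± 0.13 in the eIF4A2 IP (adjusted p = 0.0157), 0.15 ± 0.13 in the eIF4A1 IP (adjusted p = 0.379) and near 0 in the DDX6 IP (0.998-fold, adjusted p = 0.987). Without RIP total RNA replicate 1 the eIF4A2 value was 0.38 and was no longer called, and without the filter on low counts it was 0.44 and not called (adjusted p = 0.061). Scaling to library totals, without TMM factors, raised the median of all genes to 0.29, 0.32 and 0.16 in the eIF4A1, eIF4A2 and DDX6 IPs, with 6440, 6533 and 5055 genes called higher and 3104, 2852 and 2991 lower in place of 4555, 4283 and 3965 higher and 4638, 4509 and 4079 lower, and no called member changed direction. On that scale MCM8 was also called higher in the eIF4A1 IP (0.40).

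**Figure D2:**
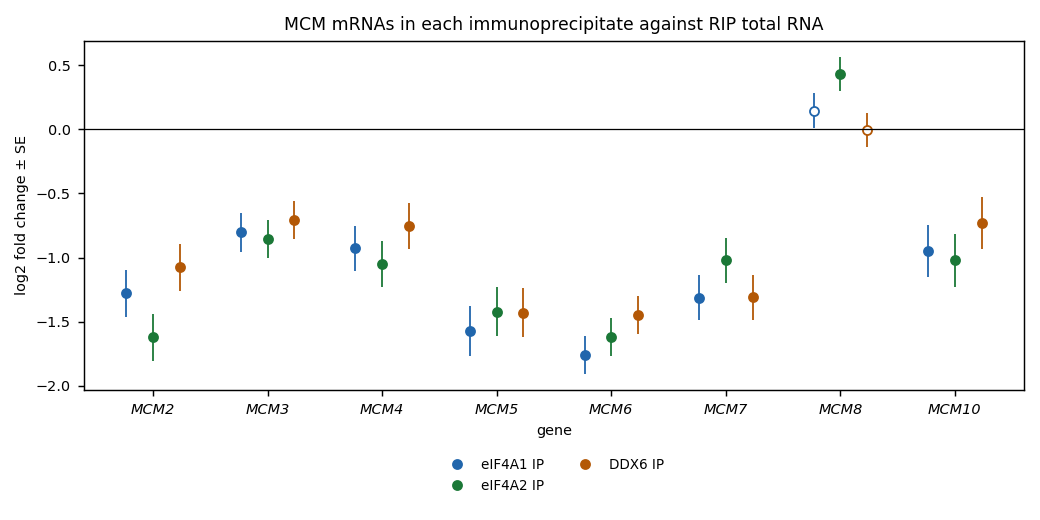
Log2 fold change of each MCM mRNA (y axis, ± SE) in the eIF4A1, eIF4A2 and DDX6 IPs against RIP total RNA, with filled points where the adjusted p was below 0.05. All members but MCM8 lie between -1.76 and -0.71, and MCM8 lies between near 0 and 0.43.

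Compared with each other, the IPs gave few calls among these mRNAs. Between the eIF4A2 and eIF4A1 IPs 0 of 8 members were called by edgeR or by DESeq2 and 0 reached an unadjusted p below 0.05 in edgeR, where 0.973% of all genes were called higher and 0.0858% lower in the eIF4A2 IP. Between the DDX6 and eIF4A1 IPs 0 members were called by edgeR or by DESeq2 and 0 reached an unadjusted p below 0.05 in edgeR, where 0.0801% of all genes were higher and 0.0114% lower in the DDX6 IP. Between the eIF4A2 and DDX6 IPs 1 member was called lower in the eIF4A2 IP (11.3% of all genes) and 1 higher (9.82%). MCM2 was lower, by -0.54 ± 0.18 (adjusted p = 0.0473), and MCM8 was higher, by 0.44 ± 0.13 (adjusted p = 0.0358), and neither gene's libraries overlapped between these IPs, as held for 39.8% of all genes tested. Both calls were fragile. Leaving out any 1 of the 6 libraries ended the MCM2 call (-0.64 to -0.42), and leaving out any but DDX6 IP replicate 1 ended the MCM8 call (0.35 to 0.53). Libraries with the same replicate number deviated together in this experiment, and with that number as a block the background rose, to 1245 genes higher and 1521 lower between the eIF4A2 and eIF4A1 IPs (170 and 15 without it), 1062 and 668 between the DDX6 and eIF4A1 IPs (14 and 2) and 3232 and 3842 between the eIF4A2 and DDX6 IPs (1716 and 1969), while the members called were again MCM2 and MCM8 between the eIF4A2 and DDX6 IPs and none between the others. On library totals the eIF4A2 IP against the DDX6 IP had 2677 genes higher and 1144 lower, and MCM2 was not called (-0.38).

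How the loss of CNOT1 changed mRNA abundance was asked in input RNA. The members did not move together. Of the 8, 2 were called higher (30.9% of all 15686 genes tested) and 4 lower (30.0%), with a median log2 difference of -0.13 beside 0.00 over all genes. MCM8 and MCM3 fell most, MCM6 and MCM4 less, and MCM2 and MCM10 rose.

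MCM8 was at 85.0, 85.7, 81.6 and 85.0 CPM with control siRNA and at 59.7, 60.5, 56.9 and 55.2 CPM with CNOT1 siRNA, groups that did not overlap. It fell by 0.52 ± 0.05 on the log2 scale (adjusted p = 4.49e-07). MCM3 was at 565, 554, 528 and 543 CPM with control siRNA and at 441, 432, 374 and 373 CPM with CNOT1 siRNA, again without overlap, and fell by 0.42 ± 0.06 (adjusted p = 1.76e-05).

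MCM2 moved the other way. It was at 441, 413, 443 and 383 CPM with control siRNA and at 502, 503, 462 and 476 CPM with CNOT1 siRNA, and it rose by 0.22 ± 0.05 without overlap (adjusted p = 0.00216). Of all genes tested in input RNA, 53.1% had groups that did not overlap. MCM10, the initiation factor, was at 109.7, 101, 102 and 102 CPM with control siRNA and at 127, 117, 106 and 112 CPM with CNOT1 siRNA. Its groups overlapped, and it rose by 0.17 ± 0.06 (adjusted p = 0.0164).

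MCM6 fell by 0.25 ± 0.05 (adjusted p = 0.000378), with 304 to 316 CPM in the control libraries and 249.6 to 277 CPM after CNOT1 siRNA. MCM4 fell by 0.14 ± 0.05 (adjusted p = 0.0353) with overlapping groups. MCM5 gave -0.12 ± 0.07 and MCM7 -0.05 ± 0.05, and neither was called. Leaving out 1 library changed 3 of these calls. MCM4 was not called without control replicate 1 (-0.12) or 2 (-0.14) or without CNOT1 siRNA replicate 3 (-0.13) or 4 (-0.12), MCM10 was not called without control replicate 2 (0.15) or CNOT1 siRNA replicate 1 (0.11), and MCM5 was called without control replicate 4 (-0.20). In a fit of all 24 gradient libraries MCM2 (0.21, adjusted p = 0.210), MCM6 (-0.27, adjusted p = 0.0520), MCM4 (-0.15, adjusted p = 0.174) and MCM10 (0.15, adjusted p = 0.291) were not called. On library totals 5825 genes were higher and 3722 lower, in place of 4848 and 4713. Because these are bulk libraries, fewer cells in S phase and less mRNA per cell cannot be told apart.

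In subpolysomal RNA, which holds mRNAs with no or few ribosomes, 5 of the 8 members were called lower and 0 higher after CNOT1 siRNA, against 15.2% of all 15823 genes tested called lower and 12.6% higher. All 5 were subunits of the ring. The median over the members was -0.39, beside -0.04 over all genes.

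MCM5 changed most. It was at 111, 91.0, 162 and 141 CPM with control siRNA and at 57.5, 49.3, 66.7 and 67.6 CPM with CNOT1 siRNA, without overlap, and fell by 1.04 ± 0.20 on the log2 scale (adjusted p = 0.00428). In both groups replicates 1 and 2 were lower than replicates 3 and 4. MCM3 was at 303, 283, 267 and 282 CPM with control siRNA and at 179, 160.3, 147 and 155 CPM with CNOT1 siRNA, without overlap, and fell by 0.79 ± 0.10 (adjusted p = 0.000766).

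MCM6 fell by 0.46 ± 0.10 (adjusted p = 0.0100), MCM4 by 0.39 ± 0.09 (adjusted p = 0.0130) and MCM7 by 0.39 ± 0.13 (adjusted p = 0.0493), each with groups that did not overlap, as held for 16.4% of all genes tested with CNOT1 siRNA lower. MCM2 gave -0.35 ± 0.15 (adjusted p = 0.0979), MCM10 -0.26 ± 0.13 (adjusted p = 0.153) and MCM8 -0.09 ± 0.18 (adjusted p = 0.737), with overlapping groups. Libraries with the same replicate number deviated together in this fraction, and with the replicate number as a block MCM2 (-0.34, adjusted p = 0.000715) and MCM10 (-0.27, adjusted p = 0.00681) were also called lower, so that 7 of 8 were lower, against 4936 of 15823 genes lower and 4279 higher. Over the alternatives their adjusted p ran from 0.000715 to 0.667 and from 0.00681 to 0.923. MCM4 was not called without control replicate 1 (-0.33) or 2 (-0.31), MCM6 not without control replicate 1 (-0.37), and MCM7 stayed called in 1 of the 8 fits that left out a library (-0.42 to -0.26). On library totals, which raised the median of all genes to 0.21 with 4287 genes called higher and 993 lower in place of 1986 and 2408, 2 members were called lower, MCM3 and MCM5.

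In polysomal RNA, which holds mRNAs carrying many ribosomes, 0 of the 8 members were called by edgeR or DESeq2 with all 8 libraries, and 0 reached an unadjusted p below 0.05. Over all 14474 genes 0% were called higher and 0% lower in edgeR. At an unadjusted p below 0.05 there were 38 genes higher and 61 lower, and DESeq2 also made 0 calls. Without the polysomal libraries labelled replicate 3, 2 members were called lower (18.9% of all 14514 genes) and 0 higher (21.8%).

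MCM8 was at 68.8, 77.5, 52.1 and 72.9 CPM in the libraries labelled polysomal control siRNA and at 54.8, 50.9, 78.0 and 53.7 CPM in those labelled polysomal CNOT1 siRNA. In each label the replicate 3 value lay far from its own group, at 52.1 CPM inside the range of the other label's remaining libraries and at 78.0 CPM just above it. MCM8 gave -0.20 ± 0.18 with all libraries and -0.47 ± 0.08 without both replicate 3 libraries (adjusted p = 0.00203). MCM3 was at 458, 505, 415 and 488 CPM in the libraries labelled polysomal control siRNA and at 389, 426, 558 and 385 CPM in those labelled polysomal CNOT1 siRNA, and gave -0.09 ± 0.14 with all libraries and -0.28 ± 0.08 without both (adjusted p = 0.0185). MCM2 gave 0.28 ± 0.10 without both (adjusted p = 0.0509). The remaining 6 polysomal libraries deviated together by replicate number, and with that number as a block MCM2 was called higher (0.29, adjusted p = 9.36e-05). Over all alternatives, with or without these libraries, the adjusted p of MCM2 ran from 9.36e-05 to 1.00. The values of MCM4, MCM5, MCM6, MCM7 and MCM10 without both libraries were between -0.12 and 0.15 and were not called.

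**Figure D3:**
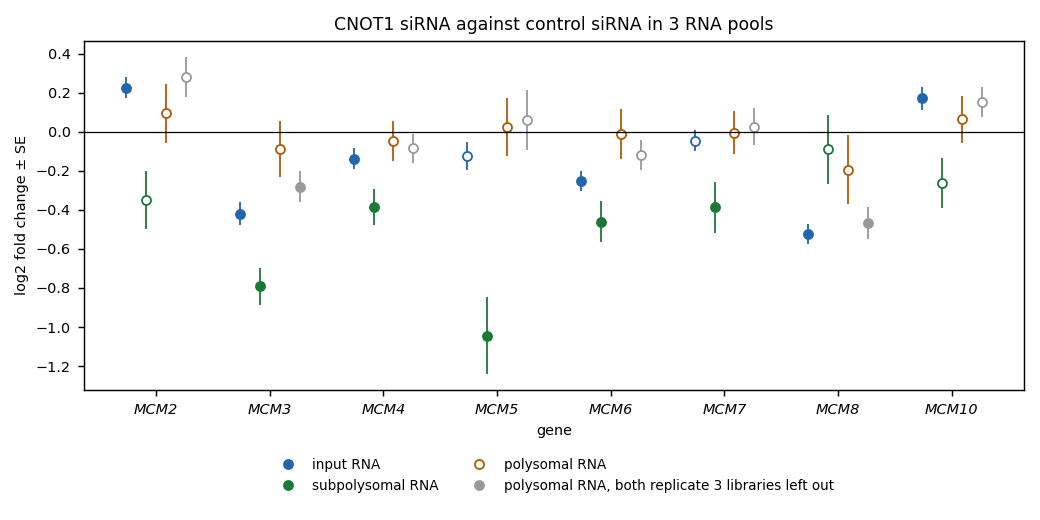
Log2 fold change of each MCM mRNA after CNOT1 siRNA (y axis, ± SE) in input, subpolysomal and polysomal RNA, the last with and without both libraries labelled replicate 3, with filled points where the adjusted p was below 0.05. MCM5 falls to -1.04 in subpolysomal RNA and stays at 0.02 in polysomal RNA, whereas MCM8 is at -0.52 in input RNA, -0.09 in subpolysomal RNA and -0.47 in polysomal RNA without both libraries.

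Where the MCM mRNAs lay in the gradient was asked by comparing libraries labelled polysomal with those labelled subpolysomal within each siRNA. Each library was scaled by its own total, so the values are relative to the other mRNAs. They do not give the share of an mRNA that lay in polysomes. For replicate 3 the CNOT1 values of the 2 fractions went against each other, and same-numbered libraries of the 2 fractions did not deviate together within an siRNA. In control cells 6 of 8 members were called higher in polysomal RNA (30.3% of all 15500 genes tested) and 0 lower (34.9%). Without both polysomal libraries labelled replicate 3 the member counts were again 6 and 0, against 31.0% and 36.8% of all 15893 genes. After CNOT1 siRNA 7 of 8 were higher (32.4% of all 15654 genes) and 0 lower (34.0%), and without both libraries again 7 and 0, against 34.5% and 36.3% of all 16148 genes. The median over the members was 0.61 in control cells and 1.22 after CNOT1 siRNA, beside -0.06 and -0.02 over all genes, and without both libraries 0.65 and 1.22, beside -0.10 and -0.03. Scaling to library totals moved the median of all genes to -0.26 after CNOT1 siRNA, with 3695 genes higher and 6553 lower in place of 5078 and 5321.

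MCM2 and MCM6 had the highest values. In control cells MCM2 was 1.29 ± 0.17 higher on the log2 scale in polysomal RNA (adjusted p = 5.57e-05) and 1.21 ± 0.15 without both libraries labelled replicate 3, and MCM6 was 1.28 ± 0.13 higher (adjusted p = 8.38e-06) and 1.31 ± 0.11 without both. After CNOT1 siRNA MCM2 was 1.79 ± 0.13 higher (1.86 ± 0.12 without both) and MCM6 1.77 ± 0.13 (1.67 ± 0.11 without both). The other called members lay lower in control cells, where MCM4 gave 0.89 ± 0.12 (0.91 ± 0.09 without both), MCM3 0.65 ± 0.13 (0.74 ± 0.10), MCM10 0.57 ± 0.13 (0.53 ± 0.10) and MCM7 0.56 ± 0.15 (0.57 ± 0.14). After CNOT1 siRNA MCM3 gave 1.39 ± 0.14 (1.27 ± 0.11 without both), MCM4 1.27 ± 0.12 (1.23 ± 0.11), MCM7 0.99 ± 0.11 (1.00 ± 0.11) and MCM10 0.94 ± 0.14 (0.95 ± 0.14). MCM8 was called in neither, with -0.02 ± 0.19 and -0.09 ± 0.18, and 0.13 ± 0.16 and -0.23 ± 0.15 without both.

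MCM5 was the one ring subunit not called between the fractions of control cells. Its ratio of polysomal to subpolysomal CPM in libraries of the same replicate number was 0.59, 0.56, -0.16 and -0.37 on the log2 scale in libraries labelled control siRNA and 1.43, 1.63, 1.01 and 0.82 in those labelled CNOT1 siRNA, where the values in the third place rest on the polysomal libraries that go against their labels. In the other 3 numbers every value after CNOT1 siRNA exceeded every control value. The same held for MCM3, MCM4, MCM6 and MCM10, and not for MCM2, MCM7 or MCM8. The share over all genes was not counted, so this separation has no reference and does not show a shift shared by the members. Same-numbered libraries of the 2 fractions were also not paired by their deviations. In the interaction test given below, MCM4, MCM6 and MCM10 were not called, with or without both libraries. Over 8827 genes at 10 CPM or more, medians of the polysomal to subpolysomal ratios were 0.27, 0.31, 0.46 and 0.31 in libraries labelled control siRNA. In those labelled CNOT1 siRNA they were 0.36, 0.33, 0.30 and 0.37. By group MCM5 gave 0.05 ± 0.20 in control cells (adjusted p = 0.846) and 1.17 ± 0.14 after CNOT1 siRNA (adjusted p = 6.80e-06), and 0.07 ± 0.22 and 1.20 ± 0.14 without both libraries.

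Whether CNOT1 siRNA changed this distribution was tested as an interaction over the 16 fraction libraries. With all of them 1 member was called higher (0.576% of all 16506 genes) and 0 lower (0.376%), and the median over the members was 0.44 beside 0.06 over all genes. The member was MCM5, with 1.10 ± 0.25 (adjusted p = 0.0404), where a positive value is a shift toward polysomal RNA after CNOT1 siRNA. MCM3 gave 0.74 ± 0.18 (adjusted p = 0.0534), MCM6 0.49 ± 0.18, MCM2 0.48 ± 0.21, MCM7 0.41 ± 0.17, MCM4 0.37 ± 0.15, MCM10 0.36 ± 0.19 and MCM8 -0.07 ± 0.27. The MCM5 call was fragile, since it held in 4 of the 16 fits that left out 1 library, with values of 0.95 to 1.22. It held without subpolysomal control replicate 2 or polysomal control replicate 1, or without either polysomal library labelled replicate 3. It was lost with the replicate number as a block (1.10, adjusted p = 0.0567) and on library totals (0.83), where the median of all genes was -0.21 and 52 genes were higher and 798 lower in place of 95 and 62.

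Without both polysomal libraries labelled replicate 3, 3 members were called higher (5.47% of all 16805 genes) and 0 lower (3.97%). They were MCM5 at 1.13 ± 0.27 (adjusted p = 0.0157), MCM2 at 0.67 ± 0.19 (adjusted p = 0.0341) and MCM3 at 0.55 ± 0.14 (adjusted p = 0.0199). The others gave 0.45 ± 0.18 for MCM10, 0.45 ± 0.17 for MCM7, 0.38 ± 0.15 for MCM6, 0.34 ± 0.13 for MCM4 and -0.33 ± 0.24 for MCM8, and the median over the members was 0.45 beside 0.07 over all genes. With the replicate number as a block on these libraries MCM4 was also called (0.34, adjusted p = 0.0366). MCM5 and MCM3 were lower in subpolysomal RNA after CNOT1 siRNA, as given above, while MCM5 in polysomal RNA was at 167, 134 and 109 CPM with control siRNA and at 156, 154 and 119.9 CPM with CNOT1 siRNA in the remaining libraries.

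**Figure D4:**
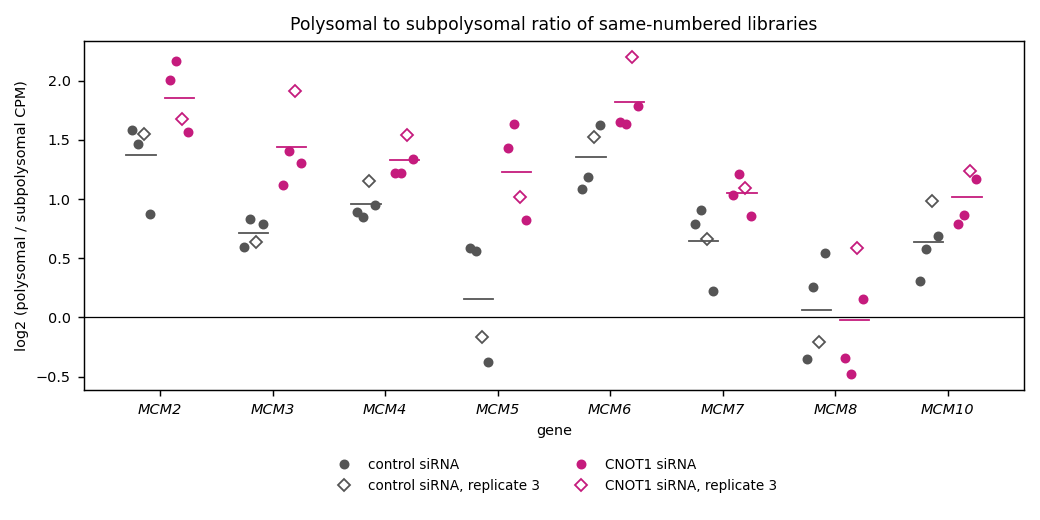
Log2 ratio of polysomal to subpolysomal CPM (y axis, pseudocount 0.5) for each MCM mRNA in libraries with the same replicate number, grey for control siRNA and magenta for CNOT1 siRNA, with bars at the means and open diamonds for replicate 3, whose polysomal libraries go against their labels. The MCM5 values labelled control span -0.37 to 0.59 and those labelled CNOT1 siRNA 0.82 to 1.63. MCM8 spans 0 in both. Medians over 8827 genes were above 0, at 0.27 to 0.46 for control siRNA and 0.30 to 0.37 for CNOT1 siRNA.

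Knockdown of TNRC6A and TNRC6B, which link Argonaute to Ccr4-Not, gave no called member. Over 14064 genes 0% were called higher and 0% lower in edgeR. At an unadjusted p below 0.05 there were 173 genes higher and 116 lower, and 8 genes, 6 higher and 2 lower, passed in DESeq2. None of the 8 members reached an unadjusted p below 0.05 in edgeR, and DESeq2 called 0 of them. TNRC6A itself gave -1.80 ± 0.29 with an adjusted p of 1.00. MCM2 was at 528 and 283 CPM with control siRNA and at 414 and 304 CPM with TNRC6A/B siRNA, and MCM5 was at 185 and 88.1 against 168 and 114 CPM. For both, control replicates 1 and 2 differed more than the group means did. Member differences lay between -0.18 and 0.05, with standard errors of 0.17 to 0.42.

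The members were set beside other genes of DNA replication and the cell cycle. Of all genes tested, 26.5%, 25.8% and 23.3% were called lower in the eIF4A1, eIF4A2 and DDX6 IPs, and 26.1%, 24.5% and 22.7% higher. The list counts below are to be read against these shares. Origin licensing factors had a pattern like that of the ring in the IPs, with 8 of 9 called lower and 1 higher in each IP and medians of -0.95, -1.01 and -0.71 in the eIF4A1, eIF4A2 and DDX6 IPs. CDT1, which loads the ring, was lowest at -1.36, -1.93 and -1.17, and ORC6, an origin recognition subunit, was the 1 that was higher at 0.66, 0.42 and 0.58. Of 18 G2/M genes 16, 15 and 16 were called lower and 0 higher, led by CENPF at -2.42, -1.94 and -2.11. Of 25 replicative polymerase and clamp genes 17, 17 and 12 were lower and 1, 1 and 0 higher, with RNASEH2A lowest at -1.52, -1.81 and -1.31 and RFC4 higher at 0.54 and 0.78 in the eIF4A1 and eIF4A2 IPs. Genes for assembly of the active helicase and origin firing were mixed, with 3 of 13 lower in each IP and 1, 2 and 1 higher and medians of -0.02, -0.05 and -0.06. GINS4, a GINS subunit, was the lowest of them at -1.03, -0.96 and -1.22. Fork protection genes gave 3, 3 and 2 of 6 lower and 1 higher in each. The E2F and pocket protein regulators stood opposite, with 7 of 13 higher and 1 lower in each IP and medians of 0.47, 0.68 and 0.54. E2F4 was highest at 1.72 in the eIF4A1 IP and 1.68 in the DDX6 IP, E2F1 at 1.68 in the eIF4A2 IP, and RB1 was lower at -1.13, -1.33 and -0.82. MCMBP, which binds the ring, was lower at -0.72, -0.71 and -0.58.

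In input RNA after CNOT1 siRNA the other lists also held genes called in both directions, with 4 of 9 licensing genes higher and 3 lower, 2 of 13 assembly genes higher and 8 lower, 5 of 25 polymerase and clamp genes higher and 10 lower, and 7 of 18 G2/M genes higher and 4 lower. Of all genes tested in input RNA, 30.9% were called higher and 30.0% lower. CDT1 rose by 0.63 and ORC6 fell by 0.59, RECQL4 fell by 0.58, RFC4 fell by 0.57 and E2F5 rose by 0.83. In subpolysomal RNA 1 of 9 licensing genes, 4 of 13 assembly genes and 0 of 6 fork protection genes were lower after CNOT1 siRNA. So were 5 of 25 polymerase and clamp genes, 5 of 18 G2/M genes and 5 of 8 members, against 15.2% of all genes. ORC6 fell by 0.76, TICRR by 0.68, POLE by 0.88 and CENPE by 0.66. In the comparison of polysomal with subpolysomal RNA of control cells, 30.3% of all genes tested were called higher and 34.9% lower. Higher calls were made for 6 of 9 licensing genes, 12 of 25 polymerase and clamp genes and 10 of 18 G2/M genes. Of the members, 6 of 8 were higher. These other lists were led by GMNN at 1.07, PCNA at 1.74 and CCNA2 at 1.63, in that order. Their lower calls, and the assembly, fork protection and E2F lists, are not described here. The counts therefore do not show whether higher polysomal values were general to replication or cell cycle genes.

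**Figure D5:**
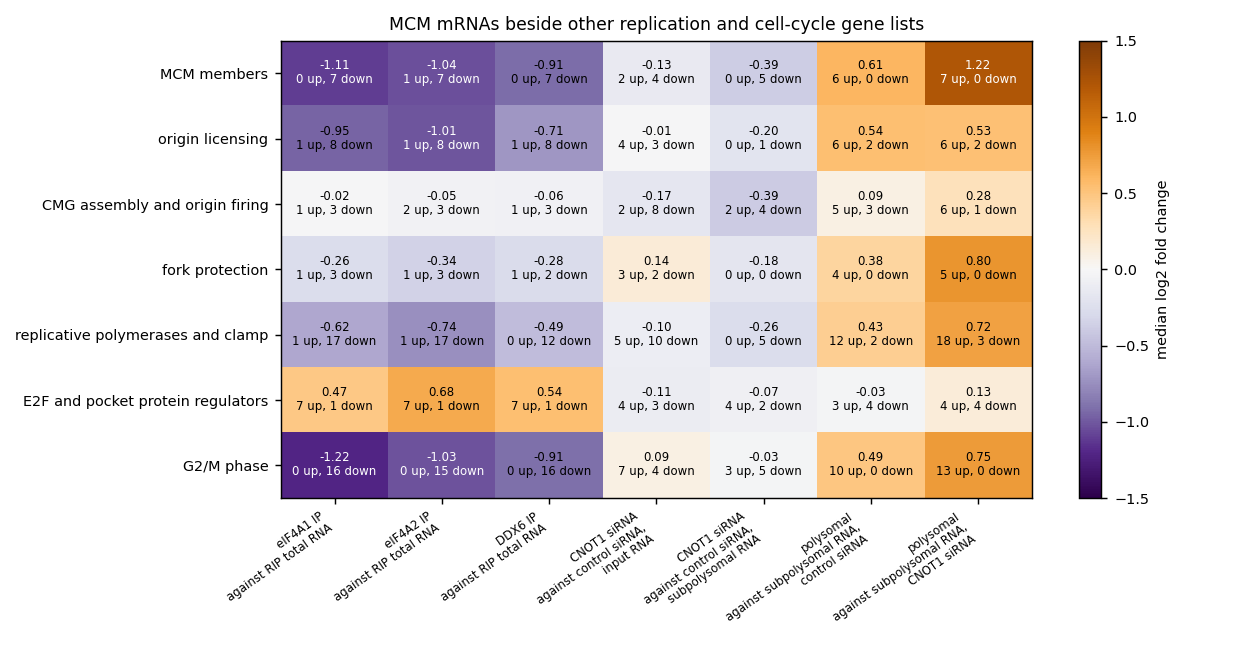
Median log2 fold change (colour and first number) and number of genes called higher and lower (second line) for the MCM members and 6 other gene lists (rows) in 7 comparisons (columns). The MCM, licensing and G2/M rows have medians of -0.71 or lower in the 3 IPs, and the row of E2F and pocket protein regulators has medians of 0.47 to 0.68.

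Across all 40 libraries, on log2(CPM + 0.5) values centred within each experiment, MCM2 to MCM7 varied together. The correlation of each of them with the mean of the other 5 was between 0.85 for MCM5 and 0.97 for MCM4, that of MCM10 with the mean of all 6 was 0.90, and that of MCM8 was 0.06. The median over the 8827 genes tested in every experiment at 10 CPM or more was 0.32. These points share libraries and depth, and IP and fraction groups make up much of their spread, so the values only describe likeness. The 5 genes outside the MCM list most like the mean of the ring were USP5 (r = 0.97), UBA1, AHCYL1, EIF3D and ANXA6 (r = 0.97 each). By correlation with the mean of all 6, MCM4 ranked 1, MCM6 3, MCM2 10, MCM7 19 and MCM3 23 among the 8827 genes. MCM10 ranked 301 and MCM5 343, although that mean includes MCM5. Many genes outside the list thus followed the ring more closely than these 2, and the likeness is not particular to the ring. By list, the median r was 0.82 for licensing, 0.82 for fork protection, 0.76 for polymerases and clamp, 0.72 for G2/M genes, 0.42 for assembly and firing and -0.18 for the E2F and pocket protein regulators.

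The annotated mRNAs differed in a way that again set MCM8 apart. Its MANE transcript has a 5′UTR of 377 nt and a 3′UTR of 4589 nt, longer than 85.2% and 89.7% of the 12785 coding genes with features, whereas those of the other members are 56 to 124 nt and 207 to 1803 nt. Medians over those genes were 147 nt and 1355 nt. The study was concerned with purine-rich motifs in the 5′UTR, and 8 purine tetramers (AAGA or AGAA or GAAA or GAGA or AGAG or GGAA or AAAA or GAAG) were counted without overlap on the mRNA strand, as matches per 100 nt. MCM8 had 4.24 per 100 nt (percentile 91.8) and MCM5 had the highest density among the members at 5.19 (percentile 96.3). MCM2 had 3.57, MCM10 3.23, MCM6 2.56, MCM7 1.94, MCM3 1.47 and MCM4 0, and the median over 12237 genes was 1.68. These are properties of the annotation, and their relation to the measured values was not tested.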

How the data were processed

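RNA was sequenced from 40 HEK293 libraries made with a stranded poly(A) kit. The authors demultiplexed reads with bcl2fastq 2.0, aligned them to hg19 with TopHat2 and counted them per gene symbol with HTSeq (submitters' processing notes and methods). The deposited values used here are raw counts, 1 file per library, and the strand option of the counting is not given in the sources used here. A deposited table of the authors' own IP comparisons (log2 fold changes, logCPM, p-values and FDR) was not used.

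Groups came from the labels. Genes were filtered with filterByExpr, scaled by TMM and tested two-sided with the quasi-likelihood test of edgeR 4.0.16 in R 4.3.3, and a gene was called when its Benjamini-Hochberg adjusted p over all genes of the fit was below 0.05. The RIP comparisons came from 1 fit of 12 libraries, each gradient comparison from its 8 libraries, the interaction from 16 and the TNRC6 comparison from 4. CPM are counts scaled by TMM-adjusted totals, set within each of the 3 experiments. DESeq2 1.42.0, other filters and scalings, a replicate block and leaving out libraries were tried as alternatives. The scripts were tested on simulated data. No molecular identifiers were available, so depth speaks to counting error only.

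All 8 members were tested in every comparison, and some that were not called are not named. Genes named from another list are mostly the called gene with the highest or the lowest log2 fold change. Often only 1 of these extremes is named, so a named gene need not stand for its list. The 5 genes most like the mean of MCM2 to MCM7 are also named. Members and lists were chosen with earlier results of these data known. Same-numbered libraries were checked for pairing by the correlation of their deviations from group means. In the RIP comparisons it was 0.18 to 0.78, in input RNA 0.21 to 0.38, in subpolysomal RNA 0.61 to 0.76, and in polysomal RNA without both libraries labelled replicate 3 0.33 to 0.63, so these were taken as paired from the data. Sequences and start sites came from RefSeq tables on GRCh38.p14, and gene positions from GENCODE on GRCh37.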

Additional observations from a re-analysis of the deposited data

Results flagged for a closer look

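Of 48 tests for a library standing apart in a group of 4, where chance marks about 1 in 20, 3 were met by the MCM mRNAs, 2 of them in the same library. MCM6 was at 315 CPM in the library labelled polysomal CNOT1 siRNA replicate 3, above 231 to 239 CPM in the other 3 libraries of that label. MCM8 was at 78.0 CPM in that library, above 50.9 to 54.8 CPM in the others. CNOT1 was at 631 CPM there, against 24 to 31.6 CPM in the others. MCM10 was at 109.7 CPM in input control siRNA replicate 1, above 101 to 102 CPM in the other control libraries.

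The effect of CNOT1 siRNA differed between polysomal and subpolysomal RNA for MCM5, by 1.10 on the log2 scale in the interaction test of edgeR (adjusted p = 0.0404). Without both polysomal libraries labelled replicate 3 it differed for MCM5 by 1.13 (adjusted p = 0.0157), for MCM2 by 0.67 (adjusted p = 0.0341) and for MCM3 by 0.55 (adjusted p = 0.0199).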

How the results depend on the processing

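Of the 49 member differences called over the 13 comparisons, 49 stayed called with DESeq2, 48 with RLE factors, 43 without a filter on low counts, 48 with the replicate block and 43 on library totals without scaling factors (a choice made after seeing the data, as was DESeq2 without both polysomal libraries labelled replicate 3), and none of the 49 changed sign under these or any other alternative run. Among all genes, counts moved by over 1.5 times with DESeq2 to 541 higher and 159 lower between the eIF4A2 and eIF4A1 IPs (170 and 15), to 362 and 177 between the DDX6 and eIF4A1 IPs (14 and 2) and to 274 and 307 in the interaction (95 and 62). With the replicate block the TNRC6 comparison had 520 genes higher and 243 lower (0 and 0), of which no member. Its numbers are shared by 2 pairs only and were not taken as paired. In the interaction RLE factors gave 46 higher, and on library totals the DDX6 IP against the eIF4A1 IP had 9 higher and 3 lower. The block in the interaction gave 0 members in place of 1 for MCM5 (1.10, adjusted p = 0.0567), and beside the values in the report it changed no other member call.

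Counts of members moved as follows. In the eIF4A1 IP 1 was higher on library totals in place of 0. In the eIF4A2 IP 0 were higher without a filter in place of 1, and 0 to 1 when leaving out 1 library. Between the eIF4A2 and DDX6 IPs 0 were higher without a filter or in a fit of only the compared libraries, 0 were lower on library totals or in that fit, and leaving out 1 library gave 0 to 1 higher and 0 lower. In input RNA a fit of all 24 gradient libraries gave 0 higher and 2 lower in place of 2 and 4 with MCM2, MCM10, MCM6 and MCM4 no longer called, and leaving out 1 library gave 1 to 2 higher. In subpolysomal RNA 2 were lower without a filter or on library totals in place of 5, and 2 to 4 when leaving out 1 library. In polysomal RNA without both libraries labelled replicate 3, 2 were lower in edgeR, with the block and with DESeq2, and 1 was higher with the block. In the interaction DESeq2 and the fit of all 24 libraries gave 2 higher, library totals 0, leaving out 1 library 0 to 2, and leaving out both libraries 3 in edgeR, 4 with the block and 3 with DESeq2.

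Differences near 0 that were not called changed sign. On library totals MCM8 was 0.14 in the DDX6 IP, MCM3 0.0082 between the eIF4A2 and eIF4A1 IPs, MCM3 0.015 and MCM6 0.0022 between the eIF4A2 and DDX6 IPs, MCM3 -0.0066 and MCM7 -0.11 between the DDX6 and eIF4A1 IPs, MCM7 0.036 in input, MCM8 0.15 in subpolysomal RNA, and MCM6 0.0040 and MCM7 0.017 in polysomal RNA. In the DDX6 IP MCM8 was 0.041 without a filter and 0.019 with only the compared libraries, and MCM5 was -0.024 between the eIF4A2 and DDX6 IPs without a filter. In polysomal RNA without both libraries labelled replicate 3 MCM7 was 0.025 in edgeR, 0.028 with the block and 0.0033 with DESeq2. Between polysomal and subpolysomal control RNA MCM8 was 0.048 with DESeq2 and with RLE factors, 0.047 in the fit of all 24 libraries, 0.093 without a filter, 0.0060 on library totals, and without both libraries 0.13, 0.14 with the block and 0.20 with DESeq2.

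When 1 library was left out, the ranges that crossed 0 were as follows. MCM8 in the DDX6 IP ran from -0.093 to 0.087. Between the eIF4A2 and eIF4A1 IPs MCM3 ran from -0.12 to 0.066, MCM4 from -0.25 to 0.017, MCM5 from -0.052 to 0.28 and MCM10 from -0.23 to 0.14. MCM5 between the eIF4A2 and DDX6 IPs ran from -0.19 to 0.13 and MCM7 between the DDX6 and eIF4A1 IPs from -0.072 to 0.080. MCM8 in subpolysomal RNA ran from -0.18 to 0.12. In polysomal RNA MCM2 ran from -0.0037 to 0.23, MCM5 from -0.082 to 0.10, MCM6 from -0.16 to 0.034, MCM7 from -0.072 to 0.034 and MCM10 from -0.017 to 0.16. Between polysomal and subpolysomal RNA MCM5 ran from -0.037 to 0.27 and MCM8 from -0.069 to 0.22 with control siRNA, and MCM8 from -0.23 to 0.015 with CNOT1 siRNA. MCM8 in the interaction ran from -0.24 to 0.042, and was -0.33 without both polysomal libraries labelled replicate 3. After TNRC6A/B siRNA MCM2 ran from -0.51 to 0.33, MCM3 from -0.23 to 0.0091, MCM4 from -0.32 to 0.10, MCM5 from -0.34 to 0.67, MCM7 from -0.32 to 0.34, MCM8 from -0.24 to 0.18 and MCM10 from -0.12 to 0.022, where the lone library left in a group is assumed to vary like the other group. The causes of these changes were not tested.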
